A study of Mus musculus with 14 samples.

Results

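The BPIF genes are a family of secreted proteins with the fold of the bactericidal/permeability-increasing protein, and 9 of them were followed through both RNA-Seq experiments of the study. The members were taken by gene symbol alone: Bpifa1, Bpifb1, Bpifb2, Bpifb3, Bpifb4, Bpifb5, Bpifb6, Bpifb9a and Bpifb9b, which are 9 of the 51211 gene symbols in each table. All 9 were present in both tables, and 8 passed the minimum mean of 10 in each experiment. Bpifb2 did not pass it in either. The values are normalized counts, which are the reads of a gene as estimated by the authors and scaled to a common depth within an experiment. Differences are of log2(normalized count + 1) and were tested with limma across all genes, with Benjamini-Hochberg adjusted p and a threshold of 0.05.

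RNA came from whole olfactory epithelia of 14 individual mice at postnatal day 5 (P5). In the Kir2.1 experiment, 3 mice that carried OMP-IRES-tTA together with the transgene tetO-Kir2.1-IRES-tauLacZ were compared with 3 littermates that were heterozygous for OMP-IRES-tTA, so the tTA allele was common to both groups and the potassium channel transgene was not. The Omp locus drives the transgene in mature olfactory sensory neurons (OSNs), which are not the gland cells that are known for BPIF secretion. The sample records carry the treatment name Kir2.1-off for these mice, which the paper uses for adults fed doxycycline, although the mice were taken at P5. In the PEA experiment, 4 wild type mice exposed to the odorant 2-phenylethylamine (PEA) from P0 until P5 were compared with 4 unexposed wild type mice. The records give C57BL/6 as the background of all mice, whereas the methods name CD-1 pups for the PEA exposure. The comparisons ask what silencing of the sensory neurons, or exposure to an odorant, does to the transcripts of the young epithelium. Nothing in the sources ties mice of the same number to one litter.

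BPIF proteins are secreted onto moist epithelia of the nose, mouth and upper airways, where several of them bind lipids and act in host defence. Bpifa1, also called SPLUNC1, is an abundant airway product with surfactant and antimicrobial activity. Bpifb9a and Bpifb9b encode vomeromodulin, a glycoprotein known from the lateral nasal and vomeronasal glands, whose secretion reaches the mucus over the sensory neurons. Bpifb3 and Bpifb4 are the mouse counterparts of genes first cloned from olfactory mucosa under the names RYA3 and RY2G. The bulk tissue cannot assign a transcript to a cell, and fewer cells of a type cannot be told apart from less RNA per cell.

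The 9 genes lie on the plus strand of chromosome 2 (GRCm38, GENCODE vM21), between 153875045 and 154320646, in a stretch of 446 kb with 13 protein-coding genes. In the order of the chromosome they are Bpifb2, Bpifb6, Bpifb3, Bpifb4, Bpifa1, Bpifb1, Bpifb5, Bpifb9a and Bpifb9b. The other 4 protein-coding genes of the stretch, Bpifa2, Bpifa3, Bpifa5 and Bpifa6, were at most 12.5 normalized counts in any of the 14 mice.

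The 150 bases before the annotated starts of 4 members are shown because these members turned out to be the most abundant ones per length, and because Bpifb9a and Bpifb9b are near copies of each other. Each is written 5′ to 3′ on the plus strand of GRCm38.p6, from the RefSeq promoter table, and the capitals mark the TATA box letters TATAAA.
Bpifb9a, chr2:154257704-154257853: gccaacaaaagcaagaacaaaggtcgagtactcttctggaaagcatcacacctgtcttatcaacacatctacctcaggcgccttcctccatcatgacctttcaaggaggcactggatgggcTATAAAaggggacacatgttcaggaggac
Bpifb9b, chr2:154307077-154307226: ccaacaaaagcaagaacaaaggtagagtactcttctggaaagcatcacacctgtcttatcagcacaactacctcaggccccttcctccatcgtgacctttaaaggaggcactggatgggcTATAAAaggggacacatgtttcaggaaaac
Bpifa1, chr2:154142730-154142879: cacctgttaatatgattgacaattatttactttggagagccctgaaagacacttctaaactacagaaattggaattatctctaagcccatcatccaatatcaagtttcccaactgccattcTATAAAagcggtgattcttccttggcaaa
Bpifb5, chr2:154223592-154223741: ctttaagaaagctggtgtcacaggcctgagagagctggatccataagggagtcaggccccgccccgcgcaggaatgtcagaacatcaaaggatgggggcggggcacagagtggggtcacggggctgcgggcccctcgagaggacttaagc

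The Bpifb9a and Bpifb9b stretches were identical at 141 of 149 aligned bases (94.6%), while Bpifb5 and Bpifb9a shared 75 of 112. TATAAA began 29 bases before the GENCODE start of Bpifb9a, 30 bases before that of Bpifb9b and 29 bases before that of Bpifa1. The annotations differ for vomeromodulin: relative to the RefSeq start it lay at -54 for Bpifb9a, -47 for Bpifb9b and -29 for Bpifa1. In promoter windows of 250 bases before to 50 bases after the RefSeq start, searched on both strands, TATAAA was found for Bpifa1, Bpifb9a and Bpifb9b and for no other member, against 13.6% of 32851 windows of the genome. The forkhead core TGTTTAC (3.65% of windows) and the SOX core ACAATG (12.6%) were found for no member, and the ETS core CAGGAAG (13.3%) only for Bpifb1. A match of letters in a window is a description of the sequence and was not tested against the expression values.

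The coding transcripts of Bpifb9a and Bpifb9b were also nearly the same. Their longest ones were identical at 2051 of 2065 aligned bases (99.3%). Of the 40-base windows of Bpifb9a, as long as a read of the Kir2.1 experiment, 76.0% occurred unchanged in Bpifb9b. Of the 150-base windows, as long as a read of the PEA experiment, 43.5% did. No other pair of members shared even a 31-base window. The split of reads between Bpifb9a and Bpifb9b is therefore uncertain, and their values are given for both throughout. By their longest coding transcripts, the other members could be told apart from each other. No member was compared with other genes or pseudogenes.

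The family took a large share of the RNA. Most of that share was Bpifb5 and the vomeromodulin genes in the 8 PEA mice, in control mouse 2 and in Kir2.1 mouse 1, but not in the other 4 mice of the Kir2.1 experiment. In the Kir2.1 experiment the 9 genes made up 0.531%, 2.87% and 0.886% of the summed normalized counts in control mice 1 to 3, and 2.89%, 0.991% and 1.21% in Kir2.1 mice 1 to 3. In the PEA experiment the share was 8.82%, 4.57%, 10.6% and 6.11% in the control mice, numbered 1 to 4, and 4.52%, 5.22%, 7.73% and 7.61% in the exposed mice, numbered 1 to 4. The shares of the groups overlapped in both experiments. Bpifb5, Bpifb9a and Bpifb9b together held between 87.8% and 94.9% of the family's sum in the 8 PEA mice, but between 4.32% and 82.9% in the 6 mice of the Kir2.1 experiment. Bpifb9b was the single highest of all genes in control mouse 2 and Kir2.1 mouse 1, in PEA control mice 1, 3 and 4 and in PEA-exposed mouse 3. By its mean over the mice it ranked 3 among all genes in the Kir2.1 experiment and 1 in the PEA experiment.

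Per kilobase of exon, Bpifa1 had the highest mean level in the Kir2.1 control mice, 113998 ± 40346 normalized counts per kb (SD, n = 3). Bpifb9b followed at 101740 ± 165051 and Bpifb9a at 24704 ± 40901, each with an SD larger than its mean. Bpifb5 stood at 7127 ± 11543, Bpifb4 at 5124 ± 165 and Bpifb6 at 4337 ± 882. Bpifb3 stood at 1249 ± 245 and Bpifb1, known from goblet cells and glands of the airways, at 484 ± 261. In this order each of the first 6 genes overlapped with its neighbour, so their places are not separated beyond the spread between mice, while Bpifb6, Bpifb3 and Bpifb1 did not overlap. The length was that of all annotated exons merged, 3617 bases for Bpifb1 and 3127 for Bpifb4. Their longest coding transcripts have 1699 and 2420 bases. Whether Bpifb1 overlaps Bpifb3, and Bpifb4 overlaps Bpifb6, depends on which length is used.

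The PEA control mice gave another order per kilobase, on values that were normalized separately and made with another library kit. Bpifb9b led with 348633 ± 137311 normalized counts per kb (SD, n = 4). Bpifb9a at 47780 ± 30009 and Bpifa1 at 42212 ± 13774 overlapped. Bpifb5 stood at 7757 ± 3107, Bpifb6 at 1793 ± 264, Bpifb4 at 669 ± 194, Bpifb3 at 348 ± 34.7 and Bpifb1 at 171 ± 63.8. With merged exon lengths none of these 5 genes overlapped with the next, though for Bpifb3 and Bpifb1 this too depends on the length used. Bpifb4 lay above Bpifb6 in mean in the Kir2.1 control mice and below it in the PEA control mice. No test was made between the experiments.

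Vomeromodulin differed between single mice of the Kir2.1 experiment far more than between the groups. Bpifb9b (154307227 to 154320646) measured 5957, 604143 and 20791 normalized counts in control mice 1 to 3 and 542878, 40641 and 141449 in Kir2.1 mice 1 to 3. Its highest value was 101 times its lowest, and both of these came from control mice. Bpifb9a (154257854 to 154271245) measured 1152, 163491 and 3810 in the control mice and 155973, 9188 and 25671 in the Kir2.1 mice, a 142-fold range. Control mouse 2 and Kir2.1 mouse 1 were the high mice for both genes, and the groups overlapped, with each Kir2.1 mouse above control mice 1 and 3 and below control mouse 2.

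Bpifb5 (154223742 to 154240902), the neighbour of the vomeromodulin genes, followed them mouse by mouse. It measured 468, 33483 and 1051 normalized counts in the control mice and 24276, 2173 and 7145 in the Kir2.1 mice, a 71.5-fold range. All 3 genes put the 6 mice in the same order, with control mouse 2 first, then Kir2.1 mice 1, 3 and 2, then control mice 3 and 1. On the log2 scale the difference of Kir2.1 from control was 1.79 (SE 1.69) for Bpifb9b, 1.89 (SE 1.83) for Bpifb9a and 1.50 (SE 1.59) for Bpifb5, with limma adjusted p of 0.782, 0.791 and 0.813. For Bpifb5 the plain means ran the other way, 11667 ± 18895 in the control and 11198 ± 11595 in the Kir2.1 mice (SD, n = 3). Without control mouse 1, the lowest mouse, the 3 log2 differences shrank to 0.38, 0.41 and 0.28, and without control mouse 2 they grew to 3.71, 3.99 and 3.36. Control mouse 1 also stood apart in its vomeronasal receptor genes, whose mean log2 level was 6.06 against 2.35 to 2.45 in the other 5 mice. With that mean level as a covariate, the log2 differences were 0.32 for Bpifb9b, 0.35 for Bpifb9a and 0.23 for Bpifb5. The covariate mainly sets control mouse 1 apart from the other 5 mice, so this fit nearly repeats leaving that mouse out.

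**Figure D1:**
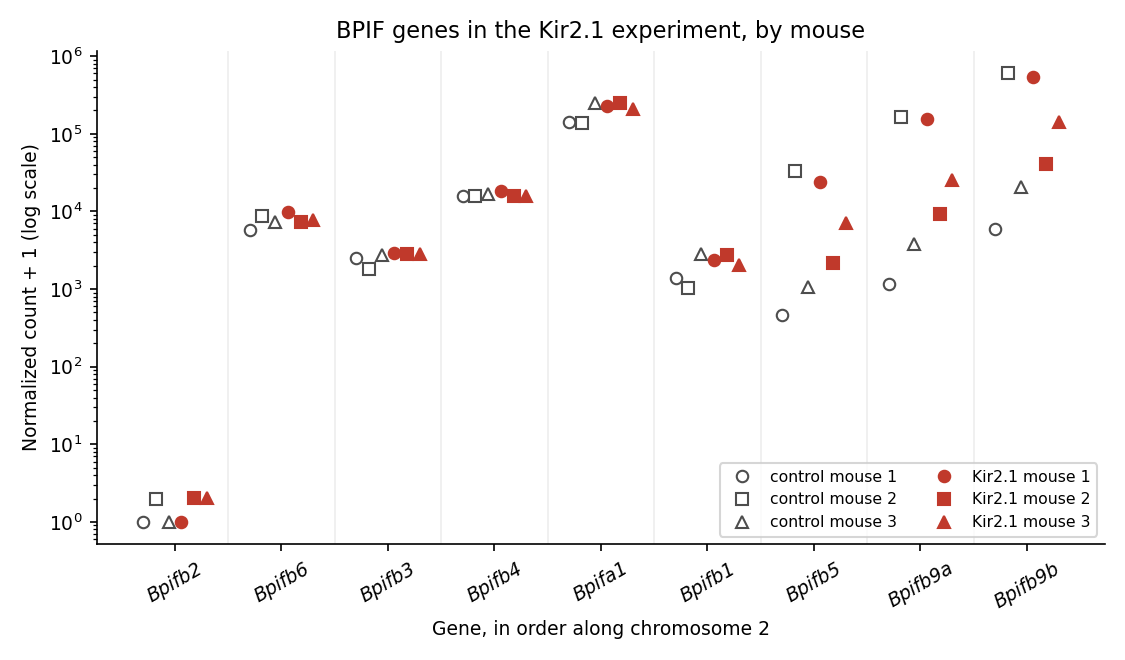
Normalized counts of the 9 BPIF genes in the 6 mice of the Kir2.1 experiment, with 1 added and on a log axis, in the order of the genes along chromosome 2. Open grey symbols are control mice, filled red symbols Kir2.1 mice, and each symbol is 1 mouse. Bpifb5, Bpifb9a and Bpifb9b spread over 71.5-fold to 142-fold with mice of both groups mixed, while the other tested members spread by at most 2.73-fold.

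These 3 genes were among the most variable abundant genes of the experiment. The residual SD within groups on the log2 scale was 3.02 for Bpifb9a, 2.77 for Bpifb9b and 2.62 for Bpifb5, against a median of 0.11 over the 7473 genes with a mean of at least 1000. They ranked 15, 16 and 17 among those 7473 genes. Bpifb4, in the same cluster, had a residual SD of 0.094.

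The other secreted members varied much less. Bpifa1 (154142880 to 154149219) measured 142523, 137804 and 248053 normalized counts in the control mice and 225733, 249882 and 206756 in the Kir2.1 mice. Bpifb1 (154190818 to 154220369), its neighbour, measured 1403, 1031 and 2819 in the control mice and 2391, 2766 and 2059 in the Kir2.1 mice. In both genes control mice 1 and 2 were the low ones and control mouse 3 lay with the Kir2.1 mice, so the groups overlapped. The log2 difference was 0.42 (SE 0.23) for Bpifa1 and 0.58 (SE 0.34) for Bpifb1, with limma adjusted p of 0.574 and 0.614. Leaving out single mice gave 0.27 (without control mouse 2) to 0.69 (without control mouse 3, adjusted p = 0.109) for Bpifa1 and 0.26 to 0.99 (adjusted p = 0.116) for Bpifb1, with the same mice left out.

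Bpifb3, Bpifb4 and Bpifb6, which lie together at the other end of the cluster, were the steadiest members. Bpifb3 (153918230 to 153932996) measured 2485, 1824 and 2707 normalized counts in the control mice and 2928, 2836 and 2839 in the Kir2.1 mice. It was the only member whose groups did not overlap, which was true of 16.3% of all genes tested. Its log2 difference of 0.31 (SE 0.14) had a limma adjusted p of 0.483 and was 0.14 without control mouse 2, and its exact permutation p of 0.1 is the smallest that 3 against 3 mice can give. Bpifb4 (153938212 to 153964101) measured 15776, 15679 and 16615 in the control mice and 18367, 15948 and 15720 in the Kir2.1 mice. Its highest mouse was only 1.17 times its lowest, and its log2 difference was 0.055 with a 95% interval from -0.14 to 0.24 (limma adjusted p = 0.875). Bpifb6 (153900388 to 153912795) measured 5752, 8698 and 7267 in the control mice and 9815, 7211 and 7819 in the Kir2.1 mice, with a log2 difference of 0.20 (SE 0.17, limma adjusted p = 0.750) that was 0.046 without control mouse 1 and 0.073 without Kir2.1 mouse 1. Its 2 highest mice were again Kir2.1 mouse 1 and control mouse 2, though within a 1.71-fold range. Bpifb2 (153875045 to 153895270) was listed at 0, 0.967 and 0 in the control mice and at 0, 1.03 and 1.03 in the Kir2.1 mice, about 1 read where it was seen at all.

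No member passed the test for Kir2.1. Of the 8 members tested, 0 had a limma adjusted p under 0.05, against 0.353% of the 19807 genes tested, and 0 had an unadjusted p under 0.05, against 11.1% of all genes. The log2 difference was above 0 in 8 of 8 members, against 51.2% of all genes. These 8 values were not independent of each other. Bpifb5, Bpifb9a and Bpifb9b put the mice in the same order, and control mice 1 and 2 were the lowest for both Bpifa1 and Bpifb1. For Bpifb4 the difference was -0.017 without Kir2.1 mouse 1. Kcnj2, which encodes Kir2.1, separated the groups as labelled, at 986, 1074 and 1274 normalized counts without and 17926, 18530 and 24193 with the transgene. With SEs of 1.59 to 1.83 on the log2 scale, a several-fold difference in Bpifb5 or vomeromodulin was not detectable between 3 and 3 mice.

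**Figure D2:**
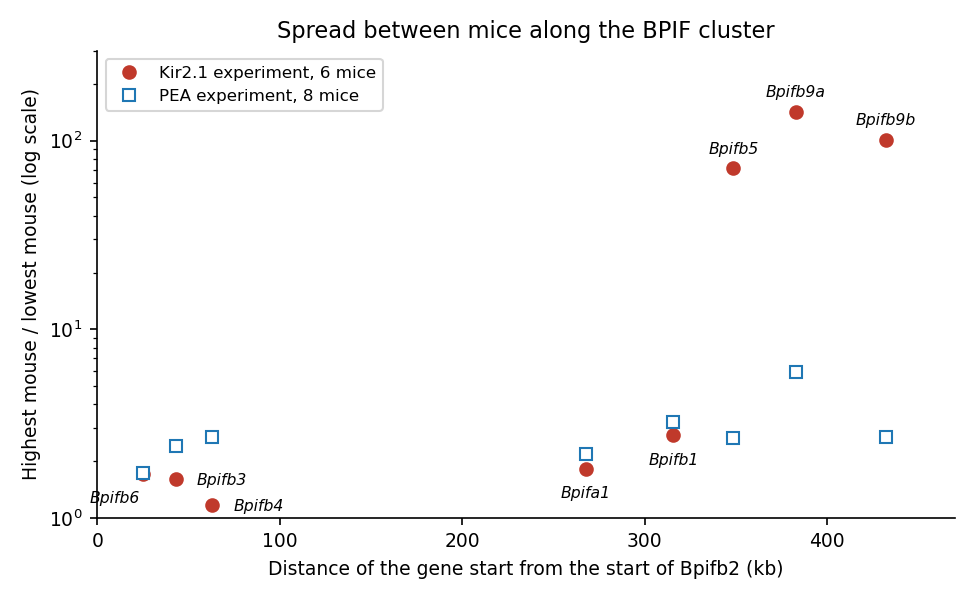
Highest mouse divided by lowest mouse for the 8 tested BPIF genes, on a log axis, against the distance of each gene's start from the start of Bpifb2 in kb. Red circles are the 6 mice of the Kir2.1 experiment and open blue squares the 8 mice of the PEA experiment; the ratio was at least 71.5 for the last 3 genes in the former and at most 5.96 for any gene in the latter.

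The genes whose levels were most like Bpifb9b over the 6 mice were Bpifb9a (Pearson r = 0.998 on log2 values), Cabs1 (0.997), Bpifb5 (0.997), 2310003L06Rik (0.997) and Phlda1 (0.993). Spearman's rho was 1.00 for the first 4 and 0.943 for Phlda1. These values describe 6 mice of which 2 were far above the rest, and Bpifb9a shares reads with Bpifb9b. Cabs1, which encodes a calcium-binding protein, measured 0, 334 and 5.31 normalized counts in the control mice and 212, 8.73 and 58.3 in the Kir2.1 mice. Among the members, Bpifb6 came next with r = 0.948, while Bpifa1 (r = -0.026), Bpifb1 (r = -0.20), Bpifb3 (r = -0.27) and Bpifb4 (r = 0.36) did not follow.

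Some other nasal gland products were high in the same mice, and some were not. Lcn11, a lipocalin, measured 727, 17570 and 2298 normalized counts in the control mice and 38203, 1660 and 2999 in the Kir2.1 mice. Obp1a, an odorant-binding protein, measured 6.37, 171 and 18.3 in the control mice and 661, 11.2 and 41.2 in the Kir2.1 mice. Odam, a secreted protein of epithelia, measured 2.96, 1079 and 48.5 in the control mice and 1314, 44.6 and 197 in the Kir2.1 mice. Obp1a and Odam are named after their values were seen, and Odam is not on the gland list. Control mouse 2 and Kir2.1 mouse 1 led in all 3 genes, as they did in vomeromodulin. Scgb1c1, a secretoglobin of the olfactory mucosa and the highest gene on the gland list, did not follow: it measured 15487, 13343 and 16496 in the control mice and 19337, 17836 and 17258 in the Kir2.1 mice (r = 0.010 with Bpifb9b). Lcn3, another lipocalin, measured 1453, 15.4 and 902 in the control mice and 854, 487 and 936 in the Kir2.1 mice, so that control mouse 2 was the lowest (r = -0.59). Obp2b (r = -0.46) was lowest in the same mouse, and Lpo (r = 0.040) and Muc5b (r = 0.36) did not follow Bpifb9b closely. These 4 genes are also named after their values were seen.

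**Figure D3:**
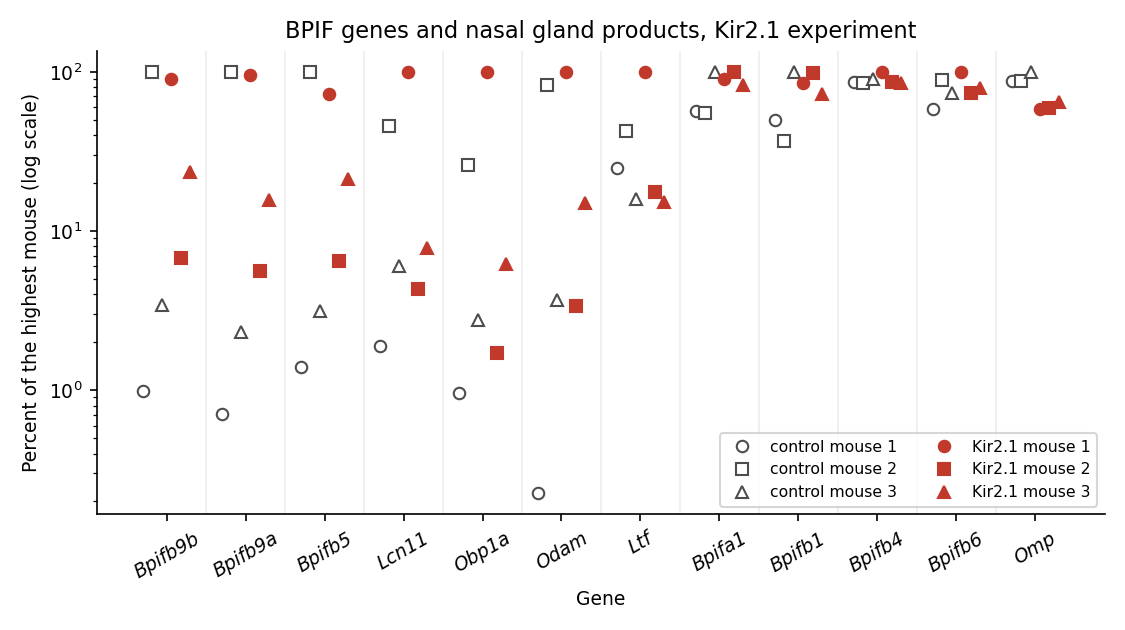
Level in each mouse of the Kir2.1 experiment as a percent of the highest mouse, on a log axis. Shown are 7 BPIF genes, the gland products Lcn11, Obp1a and Ltf, the secreted protein Odam, and Omp of the mature OSNs. Obp1a and Odam were chosen after their values were seen. The gland products Scgb1c1, Lcn3, Obp2b and Lpo, which did not follow Bpifb9b, are not shown. Open grey symbols are control mice and filled red symbols Kir2.1 mice. Control mouse 2 and Kir2.1 mouse 1 are the 2 highest for Bpifb9b, Bpifb9a, Bpifb5, Lcn11, Obp1a, Odam, Ltf and Bpifb6. They are not the 2 highest for Bpifa1, Bpifb1, Bpifb4 or Omp.

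In the PEA experiment vomeromodulin was high in every mouse. Bpifb9b measured 880842, 376939, 1013661 and 611053 normalized counts in PEA control mice 1 to 4 and 415710, 447928, 681013 and 757595 in the exposed mice. Bpifb9a measured 101905, 76738, 205840 and 49930 in the control mice and 34523, 93903, 166872 and 92349 in the exposed mice. Bpifb5 measured 15256, 6967, 18358 and 10212 in the control mice and 7798, 11641, 16345 and 17433 in the exposed mice. The groups overlapped in all 3 genes, and the highest mouse was 2.69, 5.96 and 2.63 times the lowest. The log2 difference of exposed from control was -0.27 (SE 0.32) for Bpifb9b, -0.17 (SE 0.50) for Bpifb9a and 0.094 (SE 0.32) for Bpifb5, with limma adjusted p of 0.730, 0.904 and 0.921. The direction for Bpifb9a and Bpifb5 turned when some single mice were left out.

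The less abundant members Bpifb1, Bpifb3 and Bpifb4 had higher means in the PEA-exposed mice without passing the test over all genes. Bpifb3 measured 716, 570, 690 and 633 normalized counts in the control mice and 1367, 994, 1298 and 689 in the exposed mice. Bpifb1 measured 945, 418, 505 and 611 in the control mice and 1347, 985, 957 and 780 in the exposed mice. Bpifb4 measured 1898, 2556, 1323 and 2597 in the control mice and 3483, 3392, 3550 and 2433 in the exposed mice. In each gene 3 of 4 exposed mice lay above all control mice, and exposed mouse 4 lay among them. The log2 difference was 0.69 (SE 0.20, limma adjusted p = 0.159) for Bpifb3, 0.75 (SE 0.24, adjusted p = 0.203) for Bpifb1 and 0.65 (SE 0.21, adjusted p = 0.210) for Bpifb4. Their exact permutation p were 0.0857, 0.0571 and 0.0857, where 4 against 4 mice can give 0.0286 at the smallest.

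The remaining members showed smaller differences. Bpifa1 measured 95707, 57772, 61044 and 46346 normalized counts in the control mice and 52022, 52092, 44046 and 54270 in the exposed mice, a log2 difference of -0.32 (SE 0.20, limma adjusted p = 0.482) in which control mouse 1 was the high one. Without that mouse it was -0.12, and with quantile normalization its sign turned, to 0.27. Bpifb6 measured 2766, 2948, 2632 and 3623 in the control mice and 3022, 2947, 4544 and 2710 in the exposed mice, a log2 difference of 0.12 (SE 0.17, adjusted p = 0.769). Bpifb2 was listed at 0 in all 4 control mice and at 0.590, 0, 0 and 0.815 in the exposed mice, about 1 read or less.

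**Figure D4:**
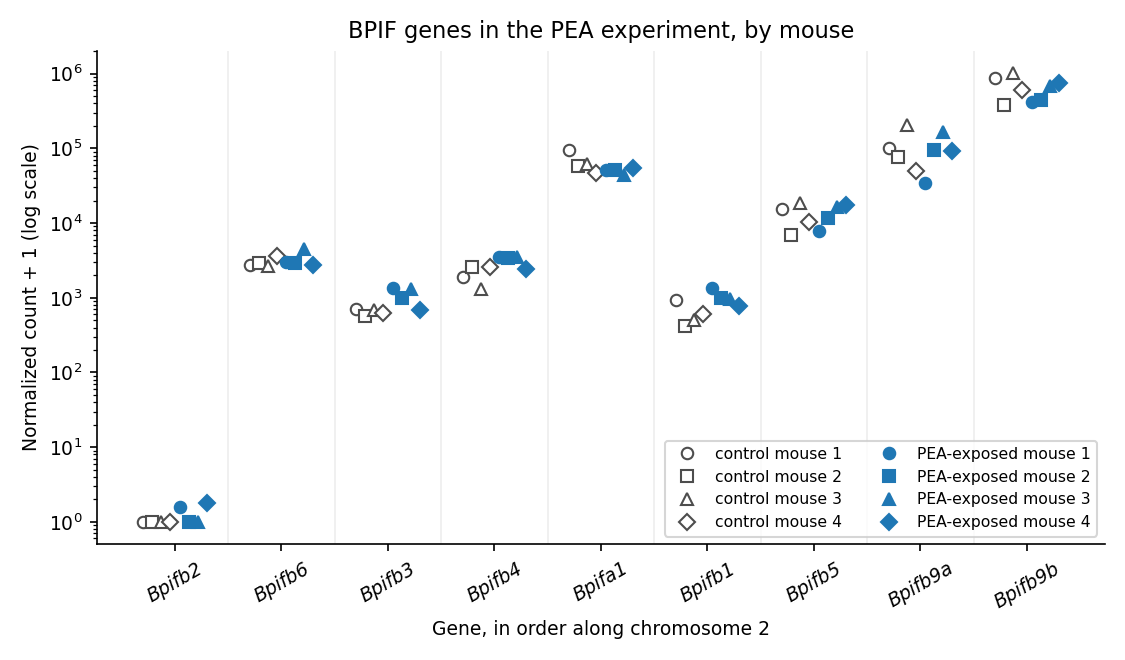
Normalized counts of the 9 BPIF genes in the 8 mice of the PEA experiment, with 1 added and on a log axis, in the order of the genes along chromosome 2. Open grey symbols are control mice and filled blue symbols PEA-exposed mice. Bpifb9b lies between 376939 and 1013661 in all 8 mice, and the exposed and control mice overlap in every gene.

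As for Kir2.1, 0 of the 8 members tested had a limma adjusted p under 0.05 in the PEA experiment, against 0.179% of the 17322 genes tested. An unadjusted p under 0.05 was found for 3 of 8, all higher, against 15.0% of all genes in either direction and 8.93% higher. These 3 values were not independent of each other. In each of the 3 genes, exposed mice 1 to 3 lay above all control mice, and exposed mouse 4 lay among them. The groups of no member stood apart, against 9.32% of all genes, and the log2 difference was above 0 for 5 of 8, against 46.5%. Vomeronasal receptor genes varied within both groups and lay higher in most control mice. Their mean log2 levels were 5.77, 4.68, 3.91 and 1.38 in the control and 5.33, 1.66, 1.38 and 1.38 in the exposed mice. With that mean level as a covariate, the log2 differences of Bpifb1, Bpifb3 and Bpifb4 were 0.92, 0.81 and 0.63 (limma adjusted p of 0.257, 0.250 and 0.376). Without the mouse of the highest such level in each group, they were 0.84, 0.61 and 0.58. Leaving out these mice does not even out the level between the groups.

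**Figure D5:**
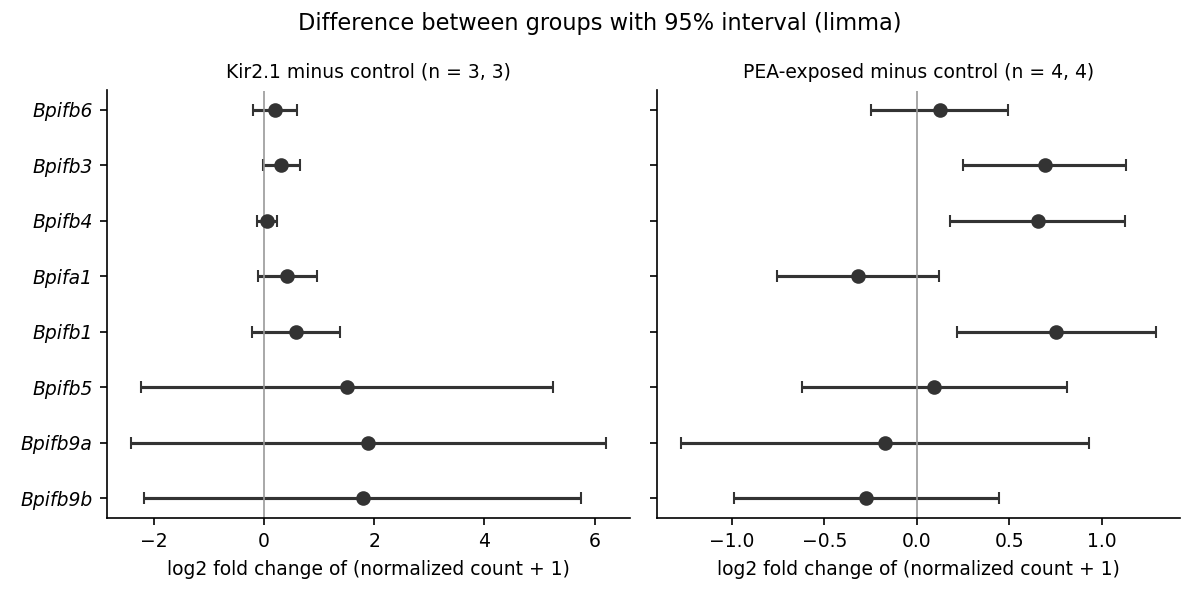
Difference of log2(normalized count + 1) between groups for the 8 tested BPIF genes, with the 95% interval from limma; left, Kir2.1 minus control (3 and 3 mice), right, PEA-exposed minus control (4 and 4 mice), each panel with its own x axis. On the left the intervals of Bpifb5, Bpifb9a and Bpifb9b run from below -2 to above 5, and on the right those of Bpifb1, Bpifb3 and Bpifb4 lie above 0, although none of the 8 genes passed adjustment over all genes in either experiment.

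The genes most like Bpifb9b over the 8 PEA mice were others than in the Kir2.1 experiment: Sh2d4a (Pearson r = 0.971), Dmd (0.965), Zfp239 (0.953), Plcb4 (0.952) and Gabra4 (0.948), with Spearman's rho of 0.929, 0.976, 0.929, 0.881 and 0.833. Dmd encodes dystrophin, Plcb4 a phospholipase C and Gabra4 a GABA receptor subunit. Cabs1 came at rank 26 (r = 0.915), Bpifb5 at rank 36 (0.898), Odam at rank 105 (0.856) and Bpifb9a at rank 1109 (0.654). Lcn11 (r = 0.12) and Obp1a (r = 0.19) did not follow Bpifb9b here. Cabs1, Odam and Bpifb5 thus ranked high by r with Bpifb9b in both experiments, over a range of 2.69-fold in one and of 101-fold in the other. These ranks come from a search over the 17322 genes tested with only 8 mice. How high r runs by chance in such a search was not tested.

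The ratio of Bpifb9b to Bpifb9a, looked at after the values were seen, was even in one experiment and uneven in the other. It was 5.17, 3.70 and 5.46 in the control mice and 3.48, 4.42 and 5.51 in the Kir2.1 mice. In the PEA experiment it was 8.64, 4.91, 4.92 and 12.2 in the control mice and 12.0, 4.77, 4.08 and 8.20 in the exposed mice. Each PEA group held 2 mice between 4.08 and 4.92 and 2 mice between 8.20 and 12.2. The ratio of Bpifb9b to Bpifb5, which share no 31-base window, was 57.7, 54.1, 55.2 and 59.8 in the control mice and 53.3, 38.5, 41.7 and 43.5 in the exposed mice. Every exposed mouse lay below every control mouse in this ratio, but only just, at 53.3 against 54.1. It was also looked at after the values were seen and was not tested. Groups did not overlap for 9.32% of all single genes, and no such share was computed for ratios. The ratios of Bpifb9b to Bpifb4, of Bpifb9b to Bpifa1 and of Bpifb9a to Bpifb5 overlapped between the groups. The part that shared reads have in the ratio of Bpifb9b to Bpifb9a was not tested.

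The relatives of the family outside the list did not pass the test either. Of 8 further genes with the same fold (Bpi, Lbp, Pltp, Bpifc and the 4 Bpifa genes of the cluster), 3 could be tested for Kir2.1 and 2 for PEA, and 0 passed limma's adjusted threshold in either; unadjusted, 0 and 1 had a p under 0.05. Over all genes such a p was found for 11.1% and 15.0%. The median log2 difference of the relatives was 0.35 and 0.21, against 0.0056 and -0.022 over all genes. Pltp, a phospholipid transfer protein, measured 139 to 235 normalized counts in the PEA control and 226 to 271 in the exposed mice (log2 difference 0.43, SE 0.16, limma adjusted p = 0.260). Lbp, which binds lipopolysaccharide, measured 1404 to 1913 in the Kir2.1 control mice and 1634 to 2030 in the Kir2.1 mice.

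Among 18 nasal gland products, 16 were in the tables, and 0 of the 15 tested for Kir2.1 and 0 of the 14 tested for PEA passed limma's adjusted threshold, with 1 and 2 genes, all higher, at an unadjusted p under 0.05. Such a p, in either direction, was found for 11.1% of all genes for Kir2.1 and for 15.0% for PEA. The median log2 difference of the gland products was 0.50 for Kir2.1 and 0.24 for PEA. Their summed level ran from 31265 to 51237 in the control and from 34334 to 97780 in the Kir2.1 mice, and from 50984 to 63058 in the control and from 38384 to 68817 in the PEA-exposed mice. Lcn4 was listed at 0 in every mouse of the Kir2.1 experiment. Transcripts of gland products were thus found in all 14 mice.

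Markers of the other cells that the dissection can hold are given beside the members. Over all genes, an unadjusted limma p under 0.05 was found for 11.1% for Kir2.1 and 15.0% for PEA, in either direction. Of 8 Bowman gland and sustentacular markers (Cyp2a5, Cyp2g1, Sec14l3 and others), 0 passed the limma test in either experiment, with 1 for Kir2.1 and 0 for PEA at an unadjusted p under 0.05, and their sums overlapped between groups. In Kir2.1 mice all 5 markers of mature OSNs had an unadjusted p under 0.05 and were lower, of which Omp alone passed adjustment (31936, 31853 and 36226 in the control and 21062, 21452 and 23516 in the Kir2.1 mice; log2 difference -0.60, SE 0.08, limma adjusted p = 0.0466; the call was lost on leaving out any mouse), and 4 of 6 blood markers had an unadjusted p under 0.05 and were higher. The blood sums were 8983 to 14290 in the control and 15637 to 23322 in the Kir2.1 mice, and their part in the small differences of Bpifa1, Bpifb1 and Bpifb3 was not tested. In PEA-exposed mice 2 of 3 basal cell markers had an unadjusted p under 0.05 and were higher, with sums of 698 to 845 in the control and 922 to 1103 in the exposed mice, beside Bpifb1, Bpifb3 and Bpifb4. Of the 5 markers of mature OSNs, 2 had an unadjusted limma p under 0.05 for PEA, 1 of them higher and the other lower.

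Of 8 goblet and club cell markers, 5 were tested in each experiment, and Muc5ac alone passed, in the PEA experiment. An unadjusted limma p under 0.05 was found for 0 of 5 for Kir2.1 and for 3 of 5 for PEA. Of these 3, Muc5ac among them, 2 were higher and the remaining marker was lower. Over all genes such a p was found for 11.1% and 15.0%, in either direction. Muc5ac, the gel-forming mucin of goblet cells, measured 601, 412, 559 and 681 normalized counts in the control mice and 2268, 2464, 2059 and 1050 in the exposed mice (log2 difference 1.75, SE 0.26, limma adjusted p = 0.0284). Leaving out single mice gave limma adjusted p from 0.00215 to 0.116, and the call was also lost with the replicate block (0.122), in limma without trend (0.0895) and with the Xist (0.0629) or vomeronasal receptor (0.0926) covariate. As in Bpifb1, Bpifb3 and Bpifb4, exposed mouse 4 was the lowest exposed mouse. Scgb1a1 and Tff3 were listed at 0 in all 14 mice, and Agr2, the highest goblet marker, had a log2 difference of -0.065 (SE 0.14). In the Kir2.1 experiment Muc5ac measured 383, 994 and 5441 in the control mice and 8584, 179 and 2609 in the Kir2.1 mice, a spread between mice that did not follow vomeromodulin (r = 0.43).

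The remaining lists had 0 genes past limma's adjusted threshold in either experiment. At an unadjusted p under 0.05 there were, for Kir2.1 and for PEA, 1 and 1 of 6 multiciliated cell markers, 0 and 1 of 3 markers of immature OSNs, and 2 and 2 of 4 markers of bone and cartilage. The bone and cartilage markers among them were higher for Kir2.1 and lower for PEA, and the other markers among them were higher. Of the vomeronasal genes tested, 5 of 98 for Kir2.1 and 6 of 129 for PEA had such a p, all lower, and skeletal muscle had 0. The share over all genes, in either direction, was 11.1% for Kir2.1 and 15.0% for PEA, so the vomeronasal counts lay below it. The bone and cartilage sums were 1027 to 2504 in the PEA control and 713 to 877 in the exposed mice. Their part in the PEA values of the BPIF genes was not tested.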

How the data were processed

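Gene-level RNA-Seq values of 14 olfactory epithelia were used. The deposited values are a normalized signal per gene symbol, called normalized counts here: the authors estimated transcript counts with Salmon 1.3.0 (GRCm38, Ensembl 100), summed them with tximport and scaled them with DESeq2 1.30.0, each experiment alone. Poly-A RNA was read without strand at 40 bp for Kir2.1, and ribosomal-RNA-depleted RNA with strand at 150 bp for PEA. Salmon is described as set for reverse-stranded reads in every library, so part of the Kir2.1 reads may be missing. Whole reads were not recoverable (at most 8.87% of values above 0 were whole multiples of the commonest value, within 0.001), so no count model was run. That commonest value, taken as 1 read, was 0.959 to 1.04 in the Kir2.1 and 0.808 to 1.18 in the PEA libraries. The summed values were 33049111 to 34198478 and 11476120 to 12467331 per mouse.

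The experiments were fitted separately in limma 3.58.1 (R 4.3.3; empirical Bayes with trend) on log2(normalized count + 1), for genes with a mean of at least 10, two-sided, with Benjamini-Hochberg adjustment over all genes tested and a threshold of 0.05. This scale understates the change of low genes. For single members a two-sided exact permutation test over every regrouping was added. The fit was tested on simulated data. Python 3.11.15, numpy 2.4.6, pandas 2.3.3, Biopython 1.88 and matplotlib 3.10.9 were used for the rest. Positions and exon lengths came from GENCODE vM21, in which 95.9% of symbols were found, and promoters from RefSeq, which matched all 9 members.

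The members and lists were chosen with earlier results of these data known. The text names all 9 members, the 5 genes most like Bpifb9b by Pearson's r, and from each list the genes that passed or were highest, and says where a gene was chosen otherwise. Alternatives were pseudocounts of 0.5 and 5, no minimum and a mean of at least 50, limma without trend and with robust moderation, quantile normalization, a replicate block, covariates for Xist and for vomeronasal receptor genes, and each mouse left out in turn; leaving out the mouse with the highest vomeronasal receptor level in each PEA group was chosen after seeing the data. Samples were grouped by their GEO labels. Replicates are individual mice.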

Additional observations from a re-analysis of the deposited data

Results flagged for a closer look

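In 24 groups of 4 mice (each member, the family's share, the ratio of Bpifb9b to Bpifb9a and Muc5ac in each PEA group), 2 held a mouse far from the other 3 by Dixon's test, and chance alone gives about 1 in 20. Bpifb2 was 0 in all 4 control mice, so that group could not be flagged. Among the exposed mice it was about 1 read or less, where that chance rate may not hold. Bpifb4 measured 2433 normalized counts in PEA-exposed mouse 4, below the 3392 to 3550 of the other 3 exposed mice and within the range of the control mice. Bpifb6 measured 4544 in PEA-exposed mouse 3, above the 2710 to 3022 of the other 3.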

How the results depend on the processing

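No member was called under any of the 16 alternatives of the Kir2.1 or the 19 of the PEA experiment. Of 280 log2 differences of members under alternatives, 10 changed sign, all of them in differences that were not called. Bpifb4 for Kir2.1 was -0.017 without Kir2.1 mouse 1 (-0.017 to 0.096 over the mice left out). For PEA, Bpifa1 was 0.27 with quantile normalization, Bpifb6 was -0.039 without exposed mouse 3 (-0.039 to 0.22), and Bpifb5 was -0.056 with the vomeronasal receptor covariate and -0.16, -0.028 and -0.059 without control mouse 2, exposed mouse 3 and exposed mouse 4 (-0.16 to 0.33). Bpifb9a for PEA was 0.20 without control mouse 3, 0.26 without exposed mouse 1 (-0.50 to 0.26) and 0.29 without control mouse 1 and exposed mouse 1 together, a setting chosen after seeing the data. The cause was not tested.

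Over all genes, the 70 called for Kir2.1 became 20 in limma without trend, 44 with the Xist covariate, 22 with the vomeronasal receptor covariate and 23 to 44 on leaving out single mice. The 31 called for PEA became 52 with no filter, 20 with the vomeronasal receptor covariate and 19 to 43 on leaving out single mice. The correlation of deviations between mice of the same number was -0.06, -0.01 and 0.16 (Kir2.1) and 0.13, -0.02, -0.05 and 0.10 (PEA). These values show no clear pairing by number, but so few mice cannot exclude one. In both Kir2.1 groups Xist was high in mice 1 and 2 and low in mouse 3. With the replicate block 9 genes were called for Kir2.1, 8 of them among the 70, and 23 for PEA, 20 of them among the 31. Omp had a limma adjusted p of 0.0704 to 0.175 on leaving out single mice, 0.0799 with the replicate block, 0.148 without trend, 0.146 with the vomeronasal receptor covariate, 0.0525 with no filter and 0.0531 with a pseudocount of 5. The wide spread of Bpifb5, Bpifb9a and Bpifb9b limits the Kir2.1 comparison, and the reads that Bpifb9a and Bpifb9b share limit statements on either alone.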
